A study of Mus musculus with 8 samples.

Results

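The core circadian clock of mammals is built from transcription factors that switch each other on and off, and the 10 genes described here are its central members. They are the activators Arntl (also called Bmal1), Clock and Npas2, the repressors Per1, Per2, Per3, Cry1 and Cry2, and the nuclear receptors Nr1d1 and Nr1d2 (REV-ERB alpha and beta). They were chosen by gene symbol from a table of 17634 genes, with their difference between the genotypes already known, so the values of that difference are a description. Counts of these genes that pass a test are given beside the share or number of all genes that pass it, and nothing is read from them. All 10 were present in the table and all 10 passed the filter on low counts. Crypts of the small intestine were collected from C57BL/6N mice on day 3 after irradiation, and their RNA was sequenced. One group of 4 libraries carried the genotype miR-29ab1-/-, in which the locus that encodes miR-29a together with miR-29b-1 is deleted, and the other 4 libraries were WT. Both groups were irradiated, and no unirradiated sample was analysed here. The labels give no sex, age, radiation dose or hour of collection, and they do not say whether each library came from a single animal, so the errors below measure only the spread between these libraries.

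In the clock, BMAL1 pairs with CLOCK or with NPAS2 and binds E-box sequences in the promoters of the Per, Cry and Nr1d genes. PER and CRY proteins return to the nucleus and repress that pair, while REV-ERB proteins repress Arntl at ROR elements that RORs activate. In the intestine this oscillator runs in epithelial cells, where it is known to time nutrient absorption and cell renewal, and feeding and glucocorticoids can shift its phase. Because transcripts of the activator Arntl and of its E-box targets peak at different hours, the levels of these genes can depend on the time of day at which tissue is taken.

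The sequences that bear on the comparison are those of the microRNAs encoded at the deleted locus and of the elements through which the clock genes act on each other. The mature microRNAs below, from RefSeq on GRCm38.p6, are shown because the deleted locus encodes the first pair, and capitals mark the seed, bases 2 to 8. The mature miR-29a-3p lies at chr6:31062673-31062694 and miR-29b-3p at chr6:31063025-31063047, both on the minus strand. The third, miR-29c-3p, lies on chromosome 1 outside the deleted locus and carries the same seed. Other loci that may encode miR-29b-3p were not searched for, so its loss from these crypts is not shown.
mmu-miR-29a-3p: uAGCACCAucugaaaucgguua
mmu-miR-29b-3p: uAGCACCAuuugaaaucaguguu
mmu-miR-29c-3p: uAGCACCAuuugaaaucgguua

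The 7 bases that pair with this seed, TGGTGCT, were searched for in the longest annotated 3′ untranslated region of each clock gene. They were found in that of Clock, which held 2 matches, at bases 5363 to 5369 and 6337 to 6343 of the 6831 bases of transcript Clock-205. None of the other 9 genes had a match, in regions of 288 to 2631 bases. Among all genes with such a region, 2131 of 12649 (16.8%) held a match, and the share was 44.9% of the 1266 genes of the length class that Clock belongs to. Capitals mark the match in these windows of 30 bases.
Clock site 1: agtccagtaaagTGGTGCTtgaacataggg
Clock site 2: gagtgatttcaaTGGTGCTatattaggttc

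Promoter windows from RefSeq (GRCm38.p6, 250 bases before to 50 after a start) were matched for 9 of the 10 genes, in 13 windows, and Per2 is named only. On both strands, the E-box CACGTG was present in windows of Per1 and Cry1, against 7.15% of 32851 windows of all genes. The related CACGTT was present in Cry1, Cry2 and Nr1d1 (4.69% of all windows). The core of the ROR element, TAGGTCA, was present in Arntl (2.61%). The D-box TTATGTAA, which binds the PAR-bZIP factors DBP, TEF and HLF, occurred 2 times in Per3 (0.938%). The 4 windows below are shown because they hold 1 example of each element, in capitals. AACGTG in Nr1d1 is CACGTT read on the other strand. The percentages above count single windows, so a clock gene with more than 1 window had more chances of a match. The other windows of Per1 and Arntl held none of these elements. A match is a description of these letters, and binding was not measured here.
Per1, chr11:69098699-69098998, plus strand: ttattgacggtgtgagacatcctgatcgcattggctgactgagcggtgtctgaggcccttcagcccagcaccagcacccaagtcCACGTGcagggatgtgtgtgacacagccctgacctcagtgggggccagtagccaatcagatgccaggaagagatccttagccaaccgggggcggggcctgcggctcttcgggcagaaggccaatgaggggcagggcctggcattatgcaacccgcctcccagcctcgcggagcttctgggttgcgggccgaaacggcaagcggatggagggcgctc
Nr1d1, chr11:98775328-98775627, minus strand: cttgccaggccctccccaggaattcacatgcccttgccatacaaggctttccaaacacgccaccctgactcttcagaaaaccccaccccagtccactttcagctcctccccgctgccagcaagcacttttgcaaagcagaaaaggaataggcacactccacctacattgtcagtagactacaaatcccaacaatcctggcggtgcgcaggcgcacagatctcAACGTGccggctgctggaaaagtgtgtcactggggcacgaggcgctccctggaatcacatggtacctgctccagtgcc
Arntl, chr7:113207261-113207560, plus strand: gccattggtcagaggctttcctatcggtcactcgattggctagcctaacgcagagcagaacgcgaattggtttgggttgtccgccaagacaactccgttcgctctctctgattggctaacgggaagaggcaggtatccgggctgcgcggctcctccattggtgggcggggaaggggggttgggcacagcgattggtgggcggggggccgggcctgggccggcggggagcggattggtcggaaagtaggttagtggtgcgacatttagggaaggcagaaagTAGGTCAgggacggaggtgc
Per3, chr4:151044616-151044915, minus strand: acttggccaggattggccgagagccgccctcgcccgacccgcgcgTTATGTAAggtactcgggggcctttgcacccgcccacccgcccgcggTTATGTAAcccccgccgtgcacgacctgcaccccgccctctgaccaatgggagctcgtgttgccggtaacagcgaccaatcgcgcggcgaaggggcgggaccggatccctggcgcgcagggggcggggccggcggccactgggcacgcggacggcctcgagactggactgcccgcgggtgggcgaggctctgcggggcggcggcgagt

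Across the 10 clock genes, 8 were higher in miR-29ab1-/- crypts in each of the 4 same-numbered pairs of libraries, and Clock and Cry1 lay close to their WT levels. Of all 12908 tested genes, 33.4% were higher in every pair. By edgeR's quasi-likelihood test over all tested genes (adjusted p under 0.05), those 8 genes were called higher and 0 of the 10 were called lower, where 24.2% of all tested genes were called higher and 23.1% lower (3129 and 2976 genes, or 2089 and 4011 with library totals as the sole scaling). The median log2 fold change, miR-29ab1-/- over WT, was 1.22 over the 10 genes, against 0.034 over all tested genes. RNA from whole crypts was measured, so a different number of cells of a type and a different amount of RNA per cell cannot be told apart. Levels of single genes between libraries are given below as CPM, counts scaled to the library total and by TMM factors, and each ± beside a mean is the SD over 4 libraries.

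**Figure D1:**
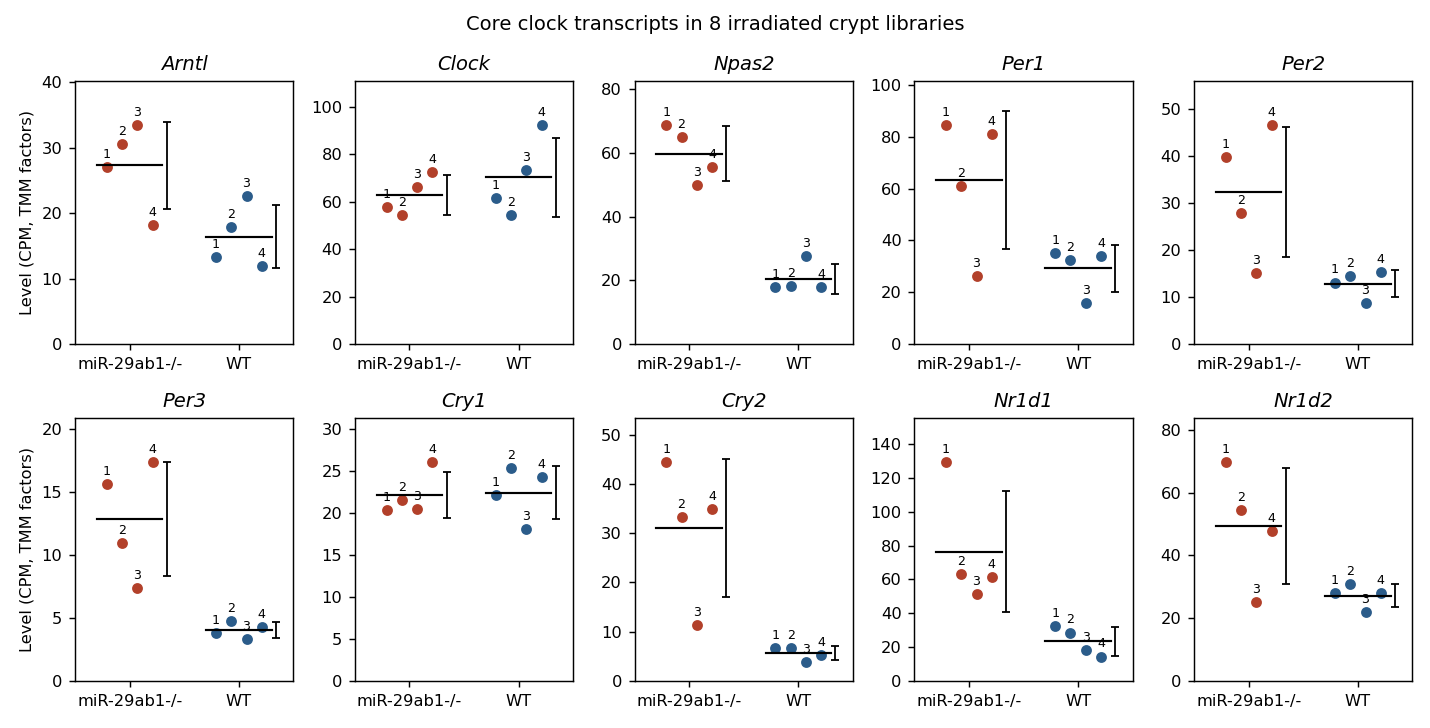
CPM of each core clock gene, 1 panel a gene on a linear axis from 0, with miR-29ab1-/- (red) left of WT (blue). Points are libraries labelled by replicate number, horizontal lines are means and brackets are the mean ± SD of 4 libraries, and Npas2, Per3, Cry2 and Nr1d1 are the 4 genes whose groups did not overlap.

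Among the activators, Arntl encodes BMAL1, the partner that no other member replaces. Its level was 27.1, 30.6, 33.5 and 18.1 CPM in miR-29ab1-/- replicates 1 to 4, against 13.4, 17.8, 22.6 and 11.9 CPM in WT replicates 1 to 4. Replicate 3 was highest and replicate 4 lowest in both genotypes, and the groups overlapped, because WT replicate 3 lay above miR-29ab1-/- replicate 4. The means were 27.3 ± 6.66 CPM in miR-29ab1-/- and 16.4 ± 4.81 CPM in WT, a fold change of 1.66 (log2 0.73, SE 0.246).

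Npas2, a paralogue of Clock that can take its place beside BMAL1, was the activator whose genotypes did not overlap. It measured 68.7, 64.9, 49.9 and 55.5 CPM in miR-29ab1-/- crypts, against 18.0, 18.3, 27.7 and 18.0 CPM in WT crypts. Every miR-29ab1-/- library lay above every WT library, and WT replicate 3 stood above the other WT libraries. The mean was 59.7 ± 8.62 CPM in miR-29ab1-/- and 20.5 ± 4.79 CPM in WT, 2.91-fold (log2 1.54, SE 0.177).

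Clock itself, the histone acetyltransferase partner of BMAL1 and the gene with the seed matches shown above, measured 57.7, 54.4, 66.3 and 72.6 CPM in miR-29ab1-/- crypts. The WT libraries had 61.3, 54.4, 73.2 and 92.3 CPM. The ranges overlapped, with replicate 4 highest and replicate 2 lowest in both genotypes. WT replicates 3 and 4 lay above every miR-29ab1-/- library. Its log2 fold change of -0.17 had an SE of 0.174, and the same-numbered differences ran from -0.35 to 0.0003. The FPKM ratio of Npas2 to Clock was 2.88, 2.93, 1.87 and 1.89 in miR-29ab1-/- libraries, against 0.728, 0.814, 0.934 and 0.483 in WT libraries. Npas2 was thus above Clock per length in every miR-29ab1-/- library and below it in every WT library.

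The Per genes encode the repressors whose build-up closes the loop. Per1 measured 84.5, 61.1, 26.3 and 81.1 CPM in miR-29ab1-/- crypts, against 35.0, 32.3, 15.8 and 34.1 CPM in WT crypts. In both genotypes replicate 3 was far below the rest, and miR-29ab1-/- replicate 3 lay inside the WT range. The means of 63.3 ± 26.7 CPM in miR-29ab1-/- and 29.3 ± 9.09 CPM in WT gave 2.16-fold (log2 1.11, SE 0.370).

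Per2, which shares its partners with Per1, had 39.8, 27.8, 15.1 and 46.6 CPM in miR-29ab1-/- crypts. In WT crypts it had 13.1, 14.4, 8.67 and 15.3 CPM. Replicate 3 was again the lowest of both genotypes, and the groups touched only there, since miR-29ab1-/- replicate 3 lay just under WT replicate 4. The fold change was 2.51 (log2 1.33, SE 0.331), with means of 32.3 ± 13.9 CPM in miR-29ab1-/- and 12.9 ± 2.95 CPM in WT.

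Per3, a PER protein that mice can lack while keeping a rhythm, was the lowest of the 10 genes per length in both genotypes. It measured 15.6, 11, 7.38 and 17.4 CPM in miR-29ab1-/- crypts, against 3.81, 4.75, 3.35 and 4.29 CPM in WT crypts. All miR-29ab1-/- libraries were above all WT libraries, and replicate 3 was the lowest of each genotype. Its fold change was 3.17 (log2 1.67, SE 0.282), from means of 12.8 ± 4.54 CPM in miR-29ab1-/- and 4.05 ± 0.608 CPM in WT.

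The cryptochromes, which bind PER proteins and hold the activator pair in check, differed from each other most. Cry2 measured 44.5, 33.3, 11.4 and 35.0 CPM in miR-29ab1-/- crypts, against 6.77, 6.64, 3.77 and 5.29 CPM in WT crypts. The groups did not overlap, although miR-29ab1-/- replicate 3 was well below the other libraries of its genotype. With means of 31.1 ± 14.0 CPM in miR-29ab1-/- and 5.61 ± 1.40 CPM in WT, the fold change of 5.56 (log2 2.47, SE 0.390) was the highest of the 10. Cry2 shares 295 of its 6320 exonic bases (4.67%) with D930015M05Rik, a transcript on the opposite strand.

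Cry1, the paralogue that represses more strongly and later in the cycle, measured 20.3, 21.5, 20.4 and 26.1 CPM in miR-29ab1-/- crypts. The WT crypts had 22.1, 25.3, 18.0 and 24.2 CPM. The ranges overlapped, 2 of 4 same-numbered pairs were higher in miR-29ab1-/-, and the log2 fold change was -0.02 (SE 0.143). The FPKM ratio of Cry2 to Cry1 was 1.68, 1.11, 0.415 and 0.99 in miR-29ab1-/- libraries, against 0.260, 0.181, 0.155 and 0.163 in WT libraries. Each miR-29ab1-/- ratio was above each WT ratio. On the log2 scale the ratio averaged -0.097 ± 0.847 in miR-29ab1-/- and -2.43 ± 0.337 in WT.

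Among the nuclear receptors that repress Arntl, Nr1d1 measured 129.7, 63.2, 51.4 and 61.7 CPM in miR-29ab1-/- crypts, against 32.5, 28.6, 18.3 and 14.4 CPM in WT crypts. Replicate 1 was the highest of each genotype, by a wide margin in miR-29ab1-/-, and the groups did not overlap. The fold change was 3.27 (log2 1.71, SE 0.351), with means of 76.5 ± 35.8 CPM in miR-29ab1-/- and 23.5 ± 8.48 CPM in WT. The 3′ end of Nr1d1 overlaps Thra, a thyroid hormone receptor gene on the opposite strand, over 263 of its 3077 exonic bases (8.55%), and the labels do not state whether the libraries were stranded. The deposited counts of both genes were not whole numbers, so reads of this overlap may have been shared between them. Thra itself measured 75.6, 75.8, 47.4 and 49.5 CPM in miR-29ab1-/- crypts, against 23.0, 20.7, 23.2 and 19.1 CPM in WT crypts, and rose 2.88-fold (log2 1.53, SE 0.183, edgeR adjusted p = 0.00108). The part of the overlap in the Nr1d1 values was not tested.

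Nr1d2, the second REV-ERB gene, measured 69.9, 54.4, 25.2 and 47.9 CPM in miR-29ab1-/- crypts. The WT crypts had 28.0, 30.8, 21.9 and 28.1 CPM. Replicate 3 was lowest in both genotypes, and miR-29ab1-/- replicate 3 lay within the WT range. The means of 49.4 ± 18.6 CPM in miR-29ab1-/- and 27.2 ± 3.77 CPM in WT gave 1.82-fold (log2 0.86, SE 0.269). Arntl and its repressor Nr1d1 were thus both higher in miR-29ab1-/- crypts. Their FPKM ratio, Nr1d1 over Arntl, was 5.03, 2.19, 1.61 and 3.62 in miR-29ab1-/- libraries, against 2.56, 1.69, 0.856 and 1.27 in WT libraries, and the 2 sets of ratios overlapped. The ratio of Per2 to Arntl, which peak at different hours, was 0.725, 0.447, 0.219 and 1.27 in miR-29ab1-/- libraries, against 0.478, 0.401, 0.188 and 0.629 in WT libraries. It was lowest in replicate 3 and highest in replicate 4 of both genotypes, and its log2 mean was -0.87 ± 1.08 in miR-29ab1-/- and -1.37 ± 0.747 in WT. The 2 groups overlapped for this ratio too, while both ratios were higher in miR-29ab1-/- in 4 of 4 same-numbered pairs.

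**Figure D2:**
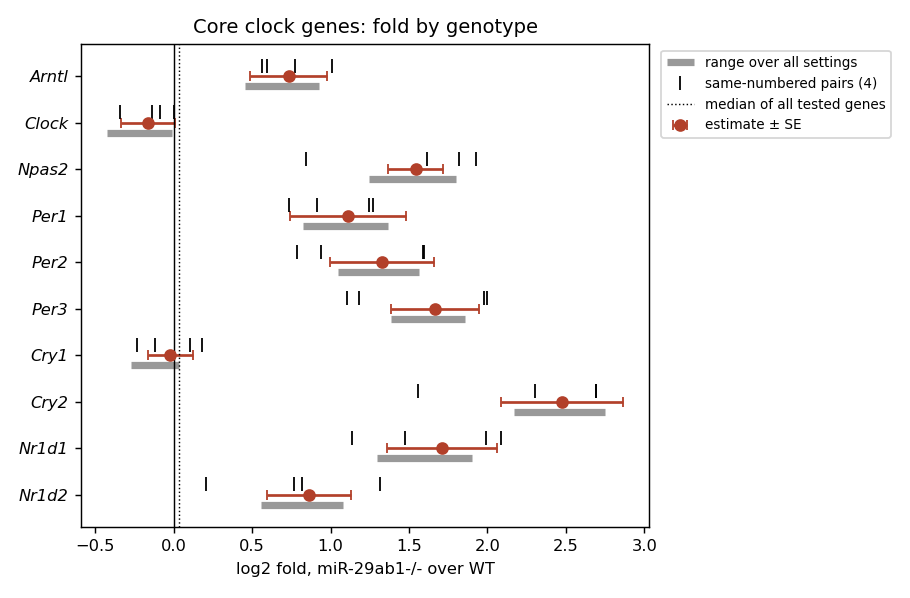
Log2 fold change of each core clock gene, miR-29ab1-/- over WT, with its SE (red point and bar), the 4 same-numbered pair differences (black ticks), the range over 18 settings (grey) and the median of all tested genes (dotted line). Cry2 is farthest right at 2.47, and Clock and Cry1 sit at -0.17 and -0.02.

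Groups that did not overlap were found for 4 of the 10 genes, Npas2, Per3, Cry2 and Nr1d1, all higher in miR-29ab1-/-, and 22.7% of all tested genes were higher without overlap. The size of the difference varied with the pair. Pair 1, replicate 1 of both genotypes, gave log2 differences of 1.93 for Npas2, 1.99 for Per3, 2.69 for Cry2 and 1.31 for Nr1d2. In pair 3 the same genes differed by 0.85, 1.11, 1.56 and 0.20. In pair 3 the difference was below that of pair 1 in all 8 genes that were higher in every pair.

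Per length, in FPKM (counts scaled by transcript length and library total), the order of the genes differed between the genotypes. In miR-29ab1-/- crypts Nr1d1 led with 25.6 ± 9.18 FPKM, followed by Npas2 with 13.9 ± 0.241, Per1 with 12.3 ± 4.89, Nr1d2 with 9.65 ± 2.71, Arntl with 8.95 ± 2.73, Cry2 with 7.10 ± 2.85, Cry1 with 7.09 ± 1.43, Clock with 6.07 ± 1.46, Per2 with 5.12 ± 2.27 and Per3 with 1.80 ± 0.660. Neighbours in this order overlapped between libraries, except Nr1d1 with Npas2 and Per2 with Per3. In WT crypts Nr1d1 also led, with 9.65 ± 3.05 FPKM, but Cry1 with 8.67 ± 1.15 and Clock with 8.13 ± 2.17 came next. Per1 with 6.95 ± 1.96, Nr1d2 with 6.58 ± 0.606, Arntl with 6.55 ± 2.22 and Npas2 with 5.86 ± 1.75 followed, and Per2 with 2.49 ± 0.516, Cry2 with 1.64 ± 0.40 and Per3 with 0.690 ± 0.0902 were lowest. Neighbours overlapped here except Npas2 with Per2 and Cry2 with Per3. Npas2 was thus rank 2 in miR-29ab1-/- and rank 7 in WT, and Cry2 was rank 6 in miR-29ab1-/- and rank 9 in WT.

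**Figure D3:**
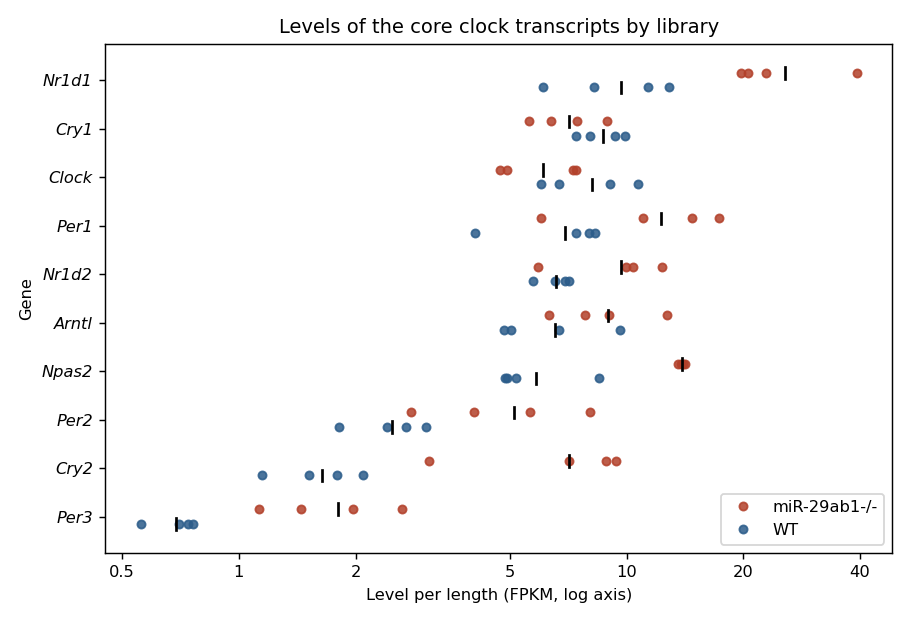
FPKM of each core clock gene (log axis) in each library, miR-29ab1-/- (red) above WT (blue), with group means as black bars and genes ordered by their WT mean. Nr1d1 is highest and Per3 lowest in both genotypes, and the miR-29ab1-/- means of Npas2 and Cry2 lie right of genes ranked above them in WT.

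Libraries of 1 genotype also differed among themselves in a way that some of the genes shared. Per1, Per2, Per3, Cry2 and Nr1d2, 5 of the 10 genes, were lowest in replicate 3 of both genotypes, where 9.86% of all tested genes were. Arntl went the other way, being highest in replicate 3 of both genotypes, as 8.81% of all tested genes were. Over the 8 libraries, deviations from the genotype mean (log2 CPM) of those 5 genes correlated with each other at r = 0.81 to 0.97 in their 10 pairs, and those of Arntl with the 5 at -0.77 to -0.37. The 5 genes and Arntl were picked by their replicate 3 values, so these r values follow in part from that choice. Over all 45 pairs of the 10 genes, r ran from -0.77 to 0.97. All these r values describe 8 libraries that share depth and scaling, and 4 numbered pairs. The deviations of Nr1d1 and Arntl had r = -0.009.

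**Figure D4:**
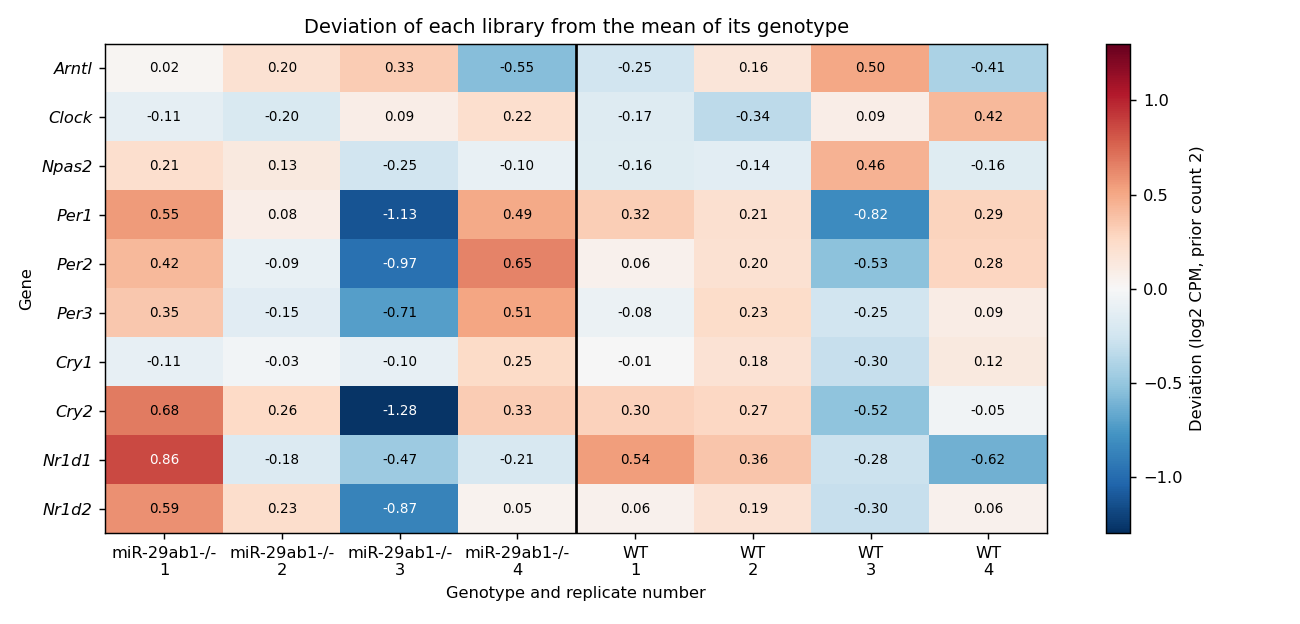
Deviation of each library from the mean of its genotype, in log2 CPM, for the 10 core clock genes, with miR-29ab1-/- libraries left of WT libraries. Replicate 3 is lowest for Per1, Per2, Per3, Cry2 and Nr1d2 and highest for Arntl in both genotypes.

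The genes whose deviations from the genotype mean followed a clock gene most closely were sought among 10942 genes with a mean of at least 50 counts, over the 8 libraries. For Arntl the 8 nearest were Ms4a18 with r = 0.965, Daglb, Rnf130, Zc3h12d, Rtl8b, Zfp983, Glipr2 and Rep15 with r = 0.904. For Nr1d1 they were Zfand3 with r = 0.989, Dok4, C2cd2l, Tmem150b, Frk, Urgcp, Crb3 and Eps8l2 with r = 0.969. No other core clock gene was among either set of 8. Both sets are the highest of 10942 r values over 8 libraries. Whether such values exceed those that a search of this size gives among unrelated genes was not tested.

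Around the 10 genes, 79 further genes of the clock pathway were listed by role, of which 75 were tested. Of these, 45 were called (60.0%, where 47.3% of all tested genes were), 25 higher and 20 lower in miR-29ab1-/-, with a median log2 fold change of 0.045. With library totals as the sole scaling the split was 18 higher and 24 lower. The lists were drawn up with earlier results of these data known.

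Rora encodes a nuclear receptor that activates Arntl at the ROR element. It averaged 5.25 ± 4.26 CPM in miR-29ab1-/- and 2.71 ± 1.27 CPM in WT and was not called (edgeR adjusted p = 0.226). Arntl2, the paralogue of Arntl, fell to 5.40 ± 2.95 CPM in miR-29ab1-/- crypts, against 11.7 ± 2.37 CPM in WT crypts (log2 fold change -1.12, edgeR adjusted p = 0.0361).

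The output factors carry the rhythm from the core genes to their targets. Of 6 tested, 3 rose and none fell (50% called, where 47.3% of all tested genes were). The 3 are the PAR-bZIP activators that bind the D-box. Hlf had 9.61, 14.8, 1.6 and 8.42 CPM in miR-29ab1-/- crypts, against 0.564, 0.897, 0.478 and 0.551 CPM in WT crypts (13.9-fold, edgeR adjusted p = 0.00171). The WT values of Hlf rest on 8 to 10 counts a library, which limits the precision of its fold change. Tef had 111, 86.2, 31.1 and 94.0 CPM in miR-29ab1-/- crypts, against 32.3, 31.5, 11.4 and 25.0 CPM in WT crypts (3.22-fold, edgeR adjusted p = 0.0098). Both showed the replicate 3 minimum seen for the Per genes.

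Dbp, a direct E-box target, had 37.0, 21.4, 2.59 and 13.0 CPM in miR-29ab1-/- crypts, against 3.52, 6.01, 0.538 and 1.87 CPM in WT crypts. It rose 6.34-fold (log2 2.66, SE 0.822, edgeR adjusted p = 0.0248), the groups overlapped, and the call was lost in 5 of 17 alternatives with adjusted p of 0.0503 to 0.0832. It shares 539 of 2993 exonic bases (18.0%) with Sphk2 on the opposite strand. The D-box repressor Nfil3 averaged 9.56 ± 5.07 CPM in miR-29ab1-/- and 10.3 ± 1.65 CPM in WT (edgeR adjusted p = 0.806). The E-box repressor Bhlhe40 averaged 136 ± 20.1 CPM in miR-29ab1-/- and 126 ± 12.6 CPM in WT (edgeR adjusted p = 0.518). Ciart averaged 4.07 ± 2.03 CPM in miR-29ab1-/- and 3.34 ± 1.66 CPM in WT (edgeR adjusted p = 0.686), and Bhlhe41 did not pass the filter on low counts. Of the 6 tested output factors, Dbp, Tef, Hlf and Ciart were lowest in replicate 3 of both genotypes.

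Genes for enzymes that set how long clock proteins last were called about as often as other genes. Of 15 kinases and phosphatases, 3 rose and 4 fell (46.7% called, where 47.3% of all tested genes were). In log2 units, Mapk8 rose by 0.79 (edgeR adjusted p = 0.0097) and the glycogen synthase kinase gene Gsk3b by 0.48 (edgeR adjusted p = 0.0138). The casein kinase genes Csnk1e, whose product marks PER proteins for degradation, and Csnk2a2 fell by 0.60 and 0.68 (edgeR adjusted p = 0.0196 and 0.00203), and Prkaa1, a subunit of AMPK, fell by 0.39 (edgeR adjusted p = 0.0089). With library totals as the sole scaling 1 of the 15 rose and 6 fell, and with replicates 1 to 3 alone 0 of these genes were called higher and 3 lower.

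Of 12 genes of the ubiquitin system, 3 rose and 2 fell (41.7% called, against the same 47.3%). Usp2, a deubiquitinase gene under clock control, had 53.6, 47.9, 14.3 and 33.3 CPM in miR-29ab1-/- crypts, against 6.48, 6.28, 4.72 and 4.07 CPM in WT crypts (6.95-fold, edgeR adjusted p = 0.00118). Fbxl21, at 1.58 ± 0.473 CPM in miR-29ab1-/- and 0.489 ± 0.174 CPM in WT, also rose (edgeR adjusted p = 0.00665), from only 5 to 9 counts a WT library. In log2 units, Usp7 and Ddb1 fell by 0.38 and 0.39 (edgeR adjusted p = 0.0200 and 0.0175), and neither was called with replicate 3 of both genotypes left out. Among 20 cofactors of the clock complexes, 3 rose and 11 fell (70% called, against the same 47.3%), with a median log2 fold change of -0.48. With library totals as the sole scaling 1 rose and 12 fell. The acetyltransferase gene Kat2b rose by 0.79 (edgeR adjusted p = 0.00156). Nono fell by 0.79, the replication-fork gene Tipin by 1.17 and the Polycomb methyltransferase gene Ezh2 by 0.80 (edgeR adjusted p = 0.00138, 0.00115 and 0.00115).

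**Figure D5:**
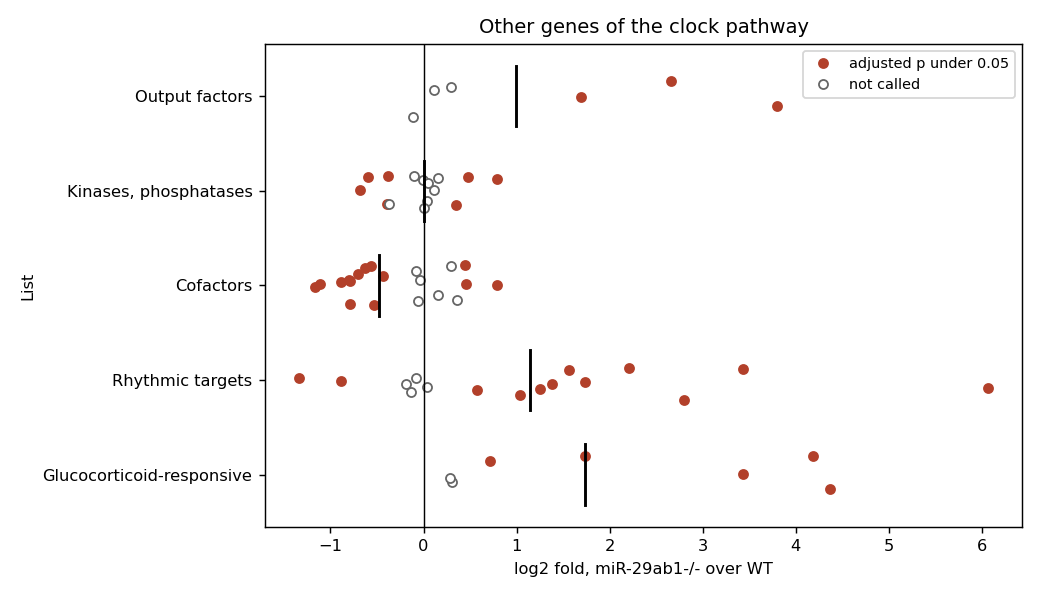
Log2 fold change, miR-29ab1-/- over WT, of tested clock pathway genes in 5 lists, with called genes filled and the list median as a bar. The cofactors lie mostly left of 0 and the rhythmic targets mostly right, up to Pdk4 at 6.07.

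Genes that follow the clock in many tissues were listed as rhythmic targets, Usp2 among them again. Of 16 tested, 10 rose and 2 fell (75% called, where 47.3% of all tested genes were), with a median log2 fold change of 1.14. With library totals as the sole scaling 8 rose and 3 fell. Pdk4, which curbs glucose oxidation, had 190, 216, 10.6 and 175 CPM in miR-29ab1-/- crypts, against 2.33, 3.86, 1.2 and 1.71 CPM in WT crypts (67.0-fold, edgeR adjusted p = 0.00127). Tsc22d3, also called Gilz, had 226, 221, 36.0 and 136 CPM in miR-29ab1-/- crypts, against 19.6, 21.6, 8.37 and 8.26 CPM in WT crypts (10.8-fold, edgeR adjusted p = 0.00204). Tspan4 and the lactate transporter gene Slc16a1 fell by 1.33 and 0.89 in log2 units (edgeR adjusted p = 0.00355 and 0.0013). Of the 16 targets, 5 were lowest in replicate 3 of both genotypes, against the 9.86% of all tested genes given above.

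Tsc22d3 is also a textbook glucocorticoid target, as is Per1. Besides Per1, 7 glucocorticoid-responsive genes were listed, with Tsc22d3 and the rhythmic target Fkbp5 counted again here. Of the 7, 5 rose and 0 fell (71.4% called, where 47.3% of all tested genes were), with a median log2 fold change of 1.74. Sgk1, a kinase gene of sodium transport, had 1592, 1213, 97.1 and 863 CPM in miR-29ab1-/- crypts, against 64.0, 85.3, 13.6 and 20.3 CPM in WT crypts (20.6-fold, edgeR adjusted p = 0.00416). Zbtb16 had 22.4, 33.6, 2.29 and 59.0 CPM in miR-29ab1-/- crypts, against 2.11, 2.69, 0.837 and 0.991 CPM in WT crypts (edgeR adjusted p = 0.00384). Both had their lowest value in replicate 3 of each genotype, as Per1 did.

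Markers of several cell types also differed between the genotypes, where 24.2% of all tested genes were called higher and 23.1% lower. All 13 enterocyte markers rose, and their summed level was 28619 to 94443 CPM in miR-29ab1-/- and 2448 to 11956 CPM in WT. All 9 proliferation markers fell, with sums of 620 to 1014 CPM in miR-29ab1-/- and 1776 to 2220 CPM in WT, and 3 of 7 stem cell markers fell. Goblet markers rose in 5 of 6 and tuft markers in 5 of 5 tested, while 0 of 6 Paneth markers were called. Fibroblast markers summed to 190 and 193 CPM in miR-29ab1-/- replicates 3 and 4 and to 169 CPM in WT replicate 3, and to 11.8 to 50.1 CPM in the other 5 libraries. Leukocyte markers summed to 504 CPM in miR-29ab1-/- replicate 3 and to 31.8 to 223 CPM in the other 7. No marker on these lists was at 0 in every library. Y-linked genes summed to 1 count in miR-29ab1-/- replicate 4 and 3 counts in WT replicate 4, and to 1285 to 2061 counts in the other 6. Within genotypes, the deviations of some clock genes followed the enterocyte and fibroblast sums over the 8 libraries. Those of Clock had r = -0.91 with the enterocyte sum and 0.67 with the fibroblast sum, and those of Nr1d1 had 0.87 and -0.69. For Cry2 they were 0.67 and -0.69 and for Nr1d2 0.62 and -0.74, while for Arntl, Npas2 and Cry1 both lay between -0.08 and 0.12. For Per1, Per2 and Per3 they ran from 0.33 to 0.48 with the enterocyte sum and from -0.60 to -0.27 with the fibroblast sum. These r values describe libraries that share depth and scaling, and the part of the markers in the clock gene values was not tested. With replicate 3 of both genotypes left out, 8 of the 10 clock genes and 2857 of all tested genes were called higher. With replicates 1 to 3 alone, 6 of the 10 and 2312 of all tested genes were.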

How the data were processed

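Small intestinal crypt RNA of irradiated C57BL/6N mice was sequenced as 8 libraries, 4 miR-29ab1-/- and 4 WT, grouped and numbered by their labels. The submitters' processing notes name HISAT2 and DESeq2, without role or version. For the counting program, genome build, annotation and strandedness the sources used here give nothing. Per the file headers, the authors deposited read counts for each gene in each library. Since 8.04 to 9.18 percent of these deposited values were not whole, they were taken as estimated counts and rounded. The second deposited set of columns has no unit in the header and was taken to be FPKM, because value over count followed the library totals to within 0.668 percent. Totals were 9481201 to 14612798 counts in miR-29ab1-/- and 10719668 to 16231099 in WT. No library repeated another, as the closest pair of a group differed by 3.12 times the chi-square of sampling. The deletion was not checked through the microRNAs, whose genes were not analysed here.

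Differences between genotypes were tested by the quasi-likelihood method of edgeR 4.0.16 (R 4.3.3), after filterByExpr and TMM scaling and with genotype as the only term, with Benjamini-Hochberg adjustment over 12908 genes and a threshold of 0.05. SE is the log2 fold change over the root of F, and all fold changes are miR-29ab1-/- over WT. The fit was tested on simulated data in which a small share of genes was changed, equally often up and down. Such data could not test the choice of scaling. Deviations used log2 CPM with a prior count of 2. Alternatives were DESeq2 1.42.0, other scalings and filters, each library left out, replicates 1 to 3 alone, and a replicate block. Leaving out replicate 3 of both genotypes was not planned and is counted among the 18 settings. Same-numbered libraries of both genotypes deviated together (r over all genes 0.311 to 0.524 in 4 pairs, against -0.478 to 0.447 in 12 differently numbered pairs). The numbers were therefore taken to pair them in the pair differences and in the replicate block. Where no other setting is named, each SE and adjusted p comes from the fit without that block. The clock genes and all lists were chosen with earlier results of these data known. The text names all 10 clock genes, every output factor, up to 3 called genes of smallest p per direction in each other list, and the 8 genes nearest to Arntl and to Nr1d1. Rora and Thra were added after their values were seen. Of the called genes under that rule, Gsk3a, Ncor1, Tbl1xr1 and Cdkn1a are described by their list counts only, and 2 are not reported here. Overlaps and untranslated regions came from GENCODE M21 on GRCm38, and promoters and microRNAs from RefSeq.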

Additional observations from a re-analysis of the deposited data

Results flagged for a closer look

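Of 84 sets of 4 libraries examined, 1 gene in 1 genotype each, 3 had a single library whose gap to the next exceeded the 95% critical value of Dixon's test, where chance flags about 1 in 20. Nr1d1 stood at 129.7 CPM in miR-29ab1-/- replicate 1, against 51.4 to 63.2 CPM in the other miR-29ab1-/- libraries. Npas2 stood at 27.7 CPM in WT replicate 3, above the other WT libraries, and Per1 at 15.8 CPM in WT replicate 3, below them. Without WT replicate 3 and without miR-29ab1-/- replicate 1, Npas2 and Nr1d1 were still called higher, while Per1 was called in neither case. The cause of these values was not tested.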

How the results depend on the processing

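The calls of the clock genes below come from the contrast that chose them, so they show how far the values move with the processing and support nothing. Over 18 settings, Npas2, Per2, Per3, Cry2 and Nr1d1 were called in 18, Arntl and Nr1d2 in 10 each and Per1 in 9, and Clock and Cry1 in none. Of the 10 clock genes, 8 were called with the replicate block, where the 5 named first and the other 3 kept their calls, and the block raised the calls over all genes to 7226, against 6105, and over the other clock pathway genes to 50, against 45. With library totals as the sole scaling 5 clock genes and 6100 of all genes were called, and Arntl, Per1 and Nr1d2 lost their calls. Leaving out 1 library at a time gave 5 to 7 clock genes, while 4988 to 6328 of all genes were called. The count was 5 without miR-29ab1-/- replicate 1 or 2 or WT replicate 1 or 4. Library totals moved the median log2 fold change of all genes to -0.23, against 0.034, and turned the split of all calls to 2089 higher and 4011 lower, against 3129 and 2976. Clock ranged from -0.42 to -0.009 and Cry1 from -0.27 to 0.04, so the sign of Cry1 depends on the setting. Reversed signs among uncalled genes were 0.0271 for Nfil3 without miR-29ab1-/- replicate 2 (-0.47 to 0.03 over libraries left out), -0.16 for Bhlhe40 with library totals and -0.0150 without miR-29ab1-/- replicate 1 (-0.02 to 0.17), and -0.00865 for Ciart with library totals and -0.0123 without WT replicate 3 (-0.01 to 0.61). The other clock pathway genes called numbered 36 to 44 with 1 library left out and 33 with replicates 1 to 3 alone. Gsk3b lost its call in 4 alternatives, Arntl2 in 4, Ddb1 in 5, Usp7 in 3, and Csnk1e and Mapk8 in 1 each, and the causes were not tested. Per3 in WT rests on 53 to 78 counts a library, which limits its precision.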
